A study of Mus musculus with 2 samples.

Results

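Prostaglandins, thromboxane and leukotrienes are lipid signals made from arachidonic acid, and the genes described here are 10 named members of that pathway, chosen by symbol: Pla2g4a, Ptgs1, Ptgs2, Ptges, Tbxas1, Ptger2, Ptger4, Alox5, Alox5ap and Lta4h. All 10 were found among the 55536 annotated genes of the gene table, of which 22028 are protein coding. They were measured in 2 libraries of ribosomal RNA-depleted total RNA taken from mouse bone marrow-derived macrophages, in a fraction the description calls nucleoplasmic and other labels call nuclear. The cells were primary macrophages of strain C57BL/6J, no mutation or transgene is named, and age and sex are labelled as not collected. Both libraries came from cells given lipid A, the part of bacterial lipopolysaccharide that TLR4 recognises, at 100 ng/ml for 25 min. Replicate 1 was made from 500 ng of RNA and replicate 2 from 1 µg. The libraries carry separate biological replicate numbers and the same donor entry, so an SD below is the spread between these libraries (n = 2) and may be partly technical. With 1 group and no untreated, earlier, later or cytoplasmic sample analysed here, the values are levels in treated nuclei: no induction was measured, no comparison between conditions was possible and no p-value is given. Bulk RNA also cannot tell fewer cells of a type from less RNA per cell.

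In this pathway a cytosolic phospholipase A2 frees arachidonic acid from membranes, and a cyclooxygenase or a lipoxygenase then takes it in one of 2 directions. Cyclooxygenases make prostaglandin H2, which terminal synthases turn into prostaglandin E2, prostaglandin D2, thromboxane A2 and others that act on G protein-coupled receptors. 5-Lipoxygenase, helped by its activating protein, makes leukotriene A4, which a hydrolase turns into leukotriene B4. Macrophages are a major source of both kinds of lipid, and Ptgs2 is a classic early gene of the response to lipopolysaccharide.

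Annotated genes took 13506939 estimated counts in the first library and 17932332 in the second, of which the 10 members had 7619 and 8398. CPM, the count scaled to the total of its library, can be up to 0.222 and 0.167 at a count of 0, for counting error only. All 8 macrophage markers were at 1 TPM or more in both libraries, led by Lyz2 and Csf1r, with a summed level of 3809 and 3153 TPM. TPM is the deposited relative level per length. Of 35 markers of 7 other cell types, 3 reached 1 TPM in both libraries of the gene table (Pf4, Gp9 and S100a9). The summed level over the 35 was 86.6 and 57.1 TPM, most of it Pf4 at 70.3 and 48.3 TPM. Pf4 is from the list for platelets and their precursors, where the next highest gene, Gp9, was at only 1.87 and 1.81 TPM. Which cells the Pf4 RNA came from was not tested. Ly6g and Retnlg of neutrophils, Fcer1a and Cma1 of mast cells and Cd3e of T cells were at 0 counts in both. Others of those lists were not. Kit and Hdc led the mast cell and basophil list, with 92 and 66 counts (2.56 and 0.60 TPM) and 29 and 12 counts. S100a9 led the neutrophil list at 1.72 and 1.58 TPM, from 7 and 12 counts. Cd8a led the list of T and NK cells in the gene table, with 9 and 1 counts. Another deposited table, made without alignment and called alignment-free here, differed for some markers. There Cd3d led the list of T and NK cells at 8.7238 and 1.1013 TPM, against 2 and 1 counts in the gene table. Pf4 stayed above 1 TPM in both libraries there, while Gp9 (1.652 and 0.633) and S100a9 (0.747 and 0.2669) did not. Which table is nearer to the RNA was not tested. The libraries themselves differed: the median gene, over genes with 10 counts or more in each, was lower in replicate 2 by 0.42 on the log2(TPM + 1) scale. In CPM the median gene was lower by 0.22 on the log2 scale. Ratios and intervals between libraries are therefore given relative to the median gene of their scale, except where a fold or level in TPM or CPM is named.

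Of the 10 members, 8 were at 1 TPM or more in both libraries, against 44.5% of all protein-coding genes. The exceptions were Ptges and Alox5. By the deposited posterior mean TPM, Ptges was above 1 in both libraries (1.35 and 1.11), and 9 members passed. The median level of the members was 3.67 ± 0.16 on the log2(TPM + 1) scale, beside 0.67 ± 0.22 over all protein-coding genes and 3.40 ± 0.33 over those at 1 TPM or more. In order of mean TPM they ran Tbxas1, Ptgs2, Alox5ap, Ptgs1, Lta4h, Ptger4, Pla2g4a, Ptger2, Ptges and Alox5, and each neighbouring pair had the same order in both libraries. Ptgs2 and Alox5ap, and Alox5ap and Ptgs1, had ranges that overlapped between libraries, so those neighbours did not differ beyond their spread. Reads were concentrated on few members: Ptgs2 and Tbxas1 together held 77.2% of the members' counts in replicate 1 and 71.7% in replicate 2.

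**Figure D1:**
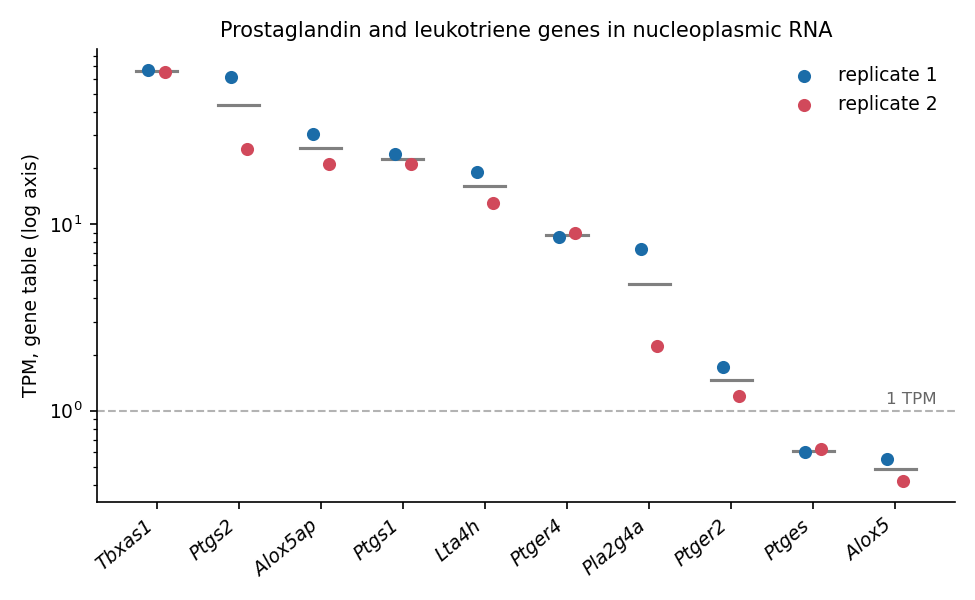
TPM of the 10 members (log axis), 1 point per library (blue replicate 1, red replicate 2) with a grey bar at the mean and a dashed line at 1 TPM. Tbxas1 and Ptgs2 lead, Ptges and Alox5 lie under the line in both libraries, and Ptgs2 and Pla2g4a have the widest gaps between libraries.

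Ptgs2, the inducible cyclooxygenase (COX-2), lies at chr1:150100031-150108227 on the plus strand of mm10. Right beside it an annotated noncoding gene, Ptgs2os (chr1:150074873-150099963), runs the other way and starts 68 bases before the Ptgs2 start. Because both starts share this stretch, the 250 bases before the Ptgs2 start are shown here from RefSeq's GRCm38.p6 table, at chr1:150099781-150100030 on the plus strand. Capitals mark the C/EBP palindrome.

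Ptgs2 upstream: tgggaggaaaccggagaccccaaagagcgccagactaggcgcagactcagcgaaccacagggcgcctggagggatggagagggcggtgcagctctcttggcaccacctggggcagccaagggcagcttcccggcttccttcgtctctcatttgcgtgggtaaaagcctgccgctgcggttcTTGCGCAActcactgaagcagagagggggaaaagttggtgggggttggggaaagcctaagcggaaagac

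Motifs were searched on both strands in the window of 300 bases that runs from 250 before each start to 50 after it: the C/EBP palindrome TTGCGCAA, the E-box CACGTG, the CRE core TGACG and the TATA box TATAAA. The palindrome lies at bases -69 to -62 from the Ptgs2 start and is present in 0.183% of the 32851 windows of that table. Of the 10 windows of the members, which cover 9 of them (Pla2g4a has 2 and Alox5ap none), only that of Ptgs2 holds it. The CRE core (20.8% of windows) and the E-box (7.15%) also occurred only in Ptgs2 among the members. They lay after the annotated start, at bases 14 to 18 and 17 to 22 counted from it. They overlap, and the stretch from base 8 to base 28 is shown with both in capitals, the CRE core on the opposite strand.

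Ptgs2 after the start: ccactaCGTCACGTGgagtcc

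The exact TATA box letters (13.6% of windows) occurred for Pla2g4a and Tbxas1 and not in the window of Ptgs2. For Pla2g4a they lay at bases -200 to -195, on the opposite strand, only in the window of the start at chr1:149922439. For Tbxas1, matches overlapped at bases -13 to -8 and -11 to -6 from the start at chr6:38918986. Both of these starts lie inside the gene spans given below, away from their ends. All positions count from annotated starts, and where transcription starts in these cells was not measured. So whether the Ptgs2 matches after the annotated start lie within its RNA is not known. A match is a description of the letters, and no binding was measured.

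Ptgs2 was at 61.3 TPM in replicate 1 and 25.4 TPM in replicate 2 (43.4 ± 25.4), from 3555 and 2487 counts. It was high in both libraries, above 94.6% of protein-coding genes by its mean, and its level differed more between libraries than that of any other of the 5 highest members. In CPM it was at 263 and 139, 1.90-fold higher in replicate 1. Relative to the median gene, the 95% exact binomial interval of the log2 CPM ratio of replicate 2 to replicate 1, which covers counting error only, ran from -0.78 to -0.63. In TPM + 1 the log2 ratio was -0.82, and 0.773% of the 8796 genes with 100 counts or more in each library had a lower ratio. With TMM-scaled counts it was -0.67, with 0.693% of those genes lower. Over the 7 scalings tried that centre on a typical gene, the ratio of Ptgs2 was negative in all, from -0.65 to -1.29. Some of these scalings use the same counts and differ by a constant shift, so the 7 are not independent. Ptgs2os had 22 counts in replicate 1 and 7 in replicate 2. RNA input also differed between the libraries, and its part in this difference was not tested.

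The annotated transcripts of Ptgs2 are both protein coding, and in the aligned tables every count of the gene was on the full-length Ptgs2-201 (4453 bases). In the alignment-free table the short Ptgs2-202 (358 bases) had 28.7 and 4.58 TPM, or 48.5% and 46.7% of the gene's TPM, from 194 and 124 counts. Which table is nearer to the RNA in these nuclei was not tested.

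Ptgs1, the constitutive cyclooxygenase (COX-1), lies at chr2:36230426-36252272. It was at 23.66 and 20.97 TPM (22.3 ± 1.90), from 508 and 752 counts. The TPM of the libraries was close, while relative to the median gene Ptgs1 was higher in replicate 2 by 0.26 in TPM + 1, 0.41 in TMM-scaled counts and 0.37 in CPM (interval 0.21 to 0.54). That ratio was -0.05 in the alignment-free table. The level of Ptgs2 was 2.59 times that of Ptgs1 in replicate 1 and 1.21 times in replicate 2, a difference that followed Ptgs2. Over protein-coding transcripts alone, an alternative chosen after seeing the data, Ptgs1 was at 10.3 and 9.97 TPM and the ratio was 5.94 and 2.55. Its coding transcript Ptgs1-201 held 73.7% and 81.7% of its counts.

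Pla2g4a, the cytosolic phospholipase A2 that supplies arachidonic acid, lies at chr1:149829618-149961290 on the minus strand. Its start faces that of Ptgs2 across 138.74 kb, with 3 annotated genes and 0 protein-coding genes between. It was at 7.32 TPM in replicate 1 and 2.23 TPM in replicate 2 (4.78 ± 3.60), from 121 and 148 counts. The counts do not show that gap: in CPM it was at 8.96 and 8.25, and the interval of the log2 ratio relative to the median gene, -0.26 to 0.46, included 0. In replicate 1, 2.83 counts on the 247-base transcript Pla2g4a-203, or 2.34% of the gene's counts, made 56.7% of its TPM, since the effective length of that transcript was 49.9 bases. Without that transcript the gene was at 3.17 and 2.23 TPM. Its log2 ratio relative to the median gene was -0.94 in TPM + 1 and 0.13 in TMM-scaled counts, so its direction between libraries depended on the scale. The deposited interval of its TPM in replicate 1, which belongs to the deposited posterior mean of 9.90, ran from 4.25 to 16.3.

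Tbxas1, the synthase of thromboxane A2, lies at chr6:38875404-39084585 on the plus strand. It was the highest member, at 67.1 and 65.4 TPM (66.3 ± 1.17), from 2330 and 3535 counts, above 96.9% of protein-coding genes by its mean. Its TPM was 112 and 106 times that of Ptges, a ratio that rests on 27 Ptges counts in each library. It was 39.4 and 24.9 in the alignment-free table, and 46.6 and 56.6 by posterior mean TPM. Most of its reads were not assigned to coding transcripts: 83.8% and 79.7% of its counts were on 3 transcripts annotated as retained intron. These are Tbxas1-205 (945 and 1375 counts), Tbxas1-202 (757 and 992) and Tbxas1-204 (252 and 451). The coding Tbxas1-201 had 265 and 533 counts. Nuclear RNA can also hold RNA not yet spliced, and these shares cannot tell it from transcripts that retain an intron. On coding transcripts alone Tbxas1 was at 17.9 and 24.3 TPM, below the 61.3 and 25.4 TPM of Ptgs2 in both libraries, which turns the order of the leading pair.

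The exon ends at which these transcripts part from the spliced coding one carry that difference, and are shown as 20 bases on either side from the GENCODE M21 transcripts. Lower case marks exon bases and capitals mark the first bases of the intron. Tbxas1-202 runs on into intron 9 (chr6:39027955-39071355), Tbxas1-204 into intron 10 (chr6:39071448-39080938), and Tbxas1-205 holds the whole of intron 11 (chr6:39081077-39083692, 2616 bases).

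Tbxas1-201 across intron 9: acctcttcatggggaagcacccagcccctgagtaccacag

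Tbxas1-202 into intron 9: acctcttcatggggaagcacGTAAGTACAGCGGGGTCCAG

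Tbxas1-201 across intron 10: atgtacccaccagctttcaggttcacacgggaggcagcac

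Tbxas1-204 into intron 10: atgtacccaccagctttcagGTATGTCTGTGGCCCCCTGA

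Tbxas1-201 across intron 11: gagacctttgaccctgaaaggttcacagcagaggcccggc

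Tbxas1-205 into intron 11: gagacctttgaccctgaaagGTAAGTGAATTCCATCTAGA

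The exon side is the same within each pair and each intron side opens with GT, the usual first bases of an intron. In the alignment-free table the retained-intron share of Tbxas1 was 86.7% and 83.7%. Hipk2, a kinase gene on the opposite strand, overlaps Tbxas1 by 762 bases at its start and had 3522 and 2984 counts. The antisense gene 1700025N23Rik inside Tbxas1 had 70 and 81 counts. The sources used here do not say whether reads were counted by strand, so the share of such reads in Tbxas1 was not tested.

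Ptges, the inducible synthase of prostaglandin E2 (mPGES-1), lies at chr2:30889471-30929863 on the minus strand. It was at 0.60 and 0.62 TPM (0.61 ± 0.01), from 27 counts in each library. The level was low in both, near the middle of all protein-coding genes. The interval of its log2 CPM ratio relative to the median gene was wide, -1.02 to 0.63. Its leading transcript by TPM differed between libraries, and at this depth no order among its transcripts could be read. In the alignment-free table it was at 1.82 and 0.81 TPM.

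The members include the prostaglandin E2 receptors EP4 (Ptger4) and EP2 (Ptger2), which both raise cyclic AMP. Ptger4, at chr15:5206661-5244187 on the minus strand, was at 8.56 and 8.97 TPM (8.77 ± 0.29), from 367 and 644 counts. It was one of 2 members, with Ptges, whose TPM was not lower in replicate 2. Relative to the median gene its log2 ratio was 0.48 in TPM + 1 and 0.65 in TMM-scaled counts, it was positive in all 7 scalings (0.24 to 0.78), and the interval of its log2 CPM ratio was 0.43 to 0.81. Of the genes with 100 counts or more in each library, 93.9% had a lower ratio in TPM + 1. Ttc33 overlaps it by 11676 bases on the opposite strand and had 156 and 158 counts.

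Ptger2, at chr14:44988195-45003820, was at 1.71 and 1.20 TPM (1.46 ± 0.36), from 65 and 76 counts. In the alignment-free table it was at 0.95 and 0.22 TPM, under 1 TPM in both libraries. The level of Ptger4 was 5.01 and 7.48 times that of Ptger2. Of its counts, 59.1% and 63.9% were on Ptger2-202, annotated as retained intron, which runs on into intron 1 (chr14:44989808-45001749, 11942 bases). The same display of the exon end shows where it parts from the coding Ptger2-201.

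Ptger2-201 across intron 1: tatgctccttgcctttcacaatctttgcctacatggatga

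Ptger2-202 into intron 1: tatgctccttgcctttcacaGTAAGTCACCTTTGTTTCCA

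On the coding transcript Ptger2 was at 0.56 and 0.34 TPM, under 1 TPM in both libraries. The antisense gene Gm17173 spans the whole of Ptger2 and had 7 counts in each library.

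The leukotriene members were far apart in level. Alox5ap, the 5-lipoxygenase activating protein (FLAP) that presents arachidonic acid to the enzyme, lies at chr5:149264767-149288153 and was at 30.3 and 21.1 TPM (25.7 ± 6.54), from 309 and 335 counts. Alox5, 5-lipoxygenase itself, lies at chr6:116410077-116461178 on the minus strand and was at 0.55 and 0.42 TPM (0.49 ± 0.09), from 21 and 20 counts. The level of Alox5ap was 55.1 and 50.1 times that of Alox5, a ratio that rests on the few Alox5 counts. It was 34.6 and 36.2 in the alignment-free table, and 25.6 and 27.8 by posterior mean TPM. Lta4h, the hydrolase that makes leukotriene B4, lies at chr10:93453411-93484875 and was at 18.9 and 12.9 TPM (15.9 ± 4.24), from 316 and 374 counts. Thus 2 of the 3 leukotriene members were well above 1 TPM and the lipoxygenase was the lowest of all 10 members. The counts of Alox5 lay on retained-intron transcripts for 84.2% in replicate 1 and 100% in replicate 2, with 3.32 and 0 counts on coding transcripts, and these shares rest on few counts. In the alignment-free table the shares were 80.0% and 94.5%, and Alox5 was at 0.56 and 0.12 TPM.

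Alox5ap and Lta4h lay near the median gene between libraries in TPM + 1, with log2 ratios of -0.08 and -0.09, and in TMM-scaled counts, with -0.04 and 0.08. They were at -0.75 and -0.50 in the alignment-free table. Their coding transcripts Alox5ap-201 and Lta4h-201 led in both libraries and in both kinds of table. The antisense gene Gm19719 inside Alox5ap had 64 and 50 counts.

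Across the members, 6 have an annotated retained-intron transcript, and for 3 of them (Tbxas1, Ptger2 and Alox5) such transcripts held over 50% of counts in both libraries. Of 6881 protein-coding genes that have one annotated, counting those with 10 counts or more in each library, 11.9% did. The median share of the 6 was 49.8% ± 4.55, beside 17.0% ± 0.39 over all those genes. Pla2g4a (34.0% and 42.2%), Lta4h (24.7% and 19.6%) and Ptgs1 (12.0% and 11.2%) had lower shares. As a share of TPM, which weights short transcripts more, the order of these turned: the mean was 39.98% for Lta4h, 38.2% for Ptgs1 and 25.0% for Pla2g4a. Tbxas1, Ptger2 and Alox5 were over 50% in both libraries by that measure too. Ptgs2, Ptges, Ptger4 and Alox5ap have no such transcript annotated, so a share for them was not measured. None of the shares tells a retained intron from nuclear RNA not yet spliced, and which it was in these libraries was not tested.

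**Figure D2:**
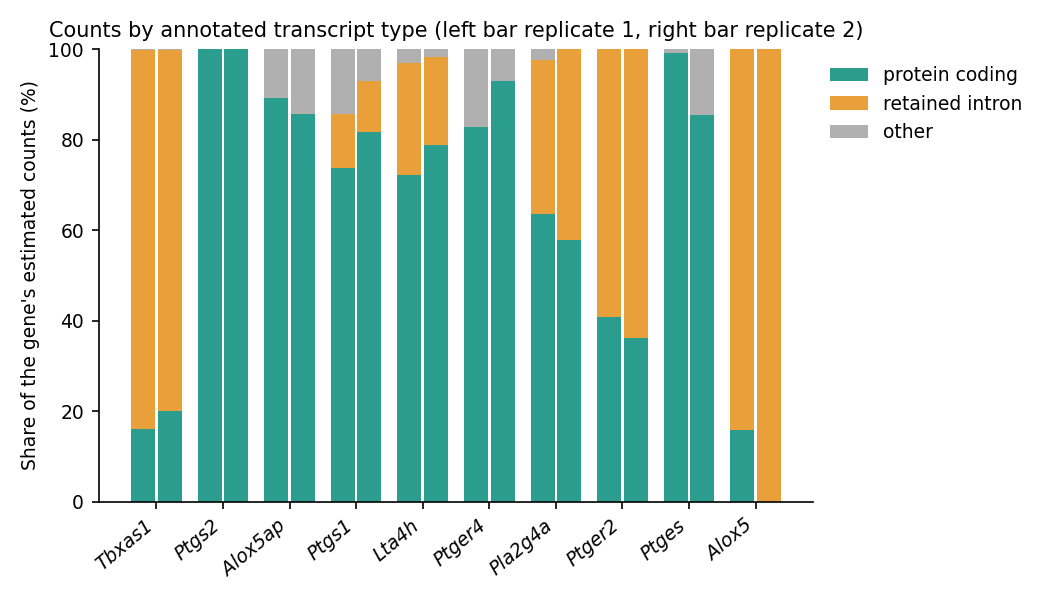
Share of each member's estimated counts (%) by annotated transcript type, left bar replicate 1 and right bar replicate 2. Tbxas1, Ptger2 and Alox5 lie mostly on retained-intron transcripts, and the Alox5 bars stand on 21 and 20 counts. Ptgs2 has only protein-coding transcripts annotated, so its bars could show no other type.

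Between the libraries, relative to the median gene in TPM + 1, 6 members were higher in replicate 2 and 4 lower, and 0 of 10 differed by over 2-fold, where 0.487% of 14584 genes were over 2-fold lower and 1.22% over 2-fold higher. Without subtracting the median, Ptgs2 (-1.24) and Pla2g4a (-1.37) were over 2-fold lower, as were 3.55% of genes. The median log2 ratio of the members was 0.19 relative to the median gene. By counts alone, the 95% interval of the log2 CPM ratio relative to the median gene lay on one side of 0 for 4 members: below it for Ptgs2, and above it for Tbxas1, Ptgs1 and Ptger4. That interval covers counting error only, and the libraries differed well beyond it (chi-square of 52.4 per degree of freedom over 15442 genes). The share of all genes with such an interval was not computed, so the 4 are not a result about the members. Over the 7 centred scalings 2 members kept 1 direction, Ptgs2 downward and Ptger4 upward, while the other 8 had ratios of both signs. Tbxas1, for example, ran from -0.60 in the alignment-free table to 0.74 in counts on protein-coding transcripts. The TMM, DESeq2 and CPM scalings use the same counts and differ by a constant shift, so they are not separate evidence of a direction. The share of all genes that keep 1 direction was not computed.

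**Figure D3:**
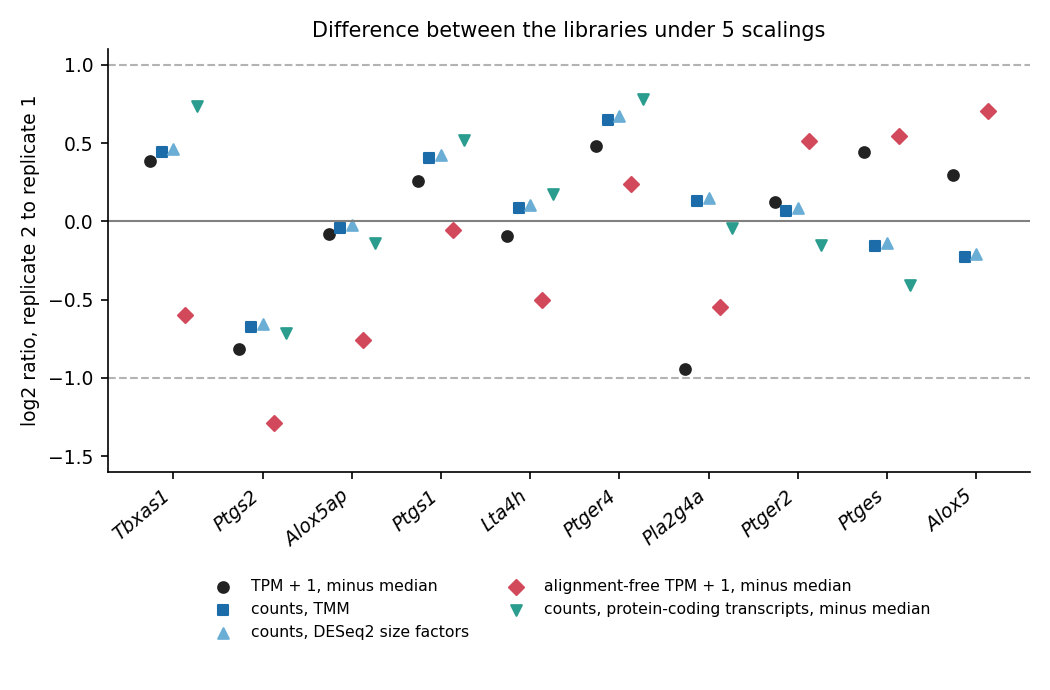
Log2 ratio of replicate 2 to replicate 1 for each member under 5 scalings, with lines at 0 and at 2-fold either way; Alox5 has no value on protein-coding transcripts, where it had 0 counts in replicate 2. Ptgs2 lies below 0 and Ptger4 above 0 under each, while Pla2g4a is at -0.94 in TPM + 1 and 0.13 in TMM-scaled counts.

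The members sit within a wider list of 51 eicosanoid genes, of which 25 were at 1 TPM or more in both libraries. Of the 41 that are not members, 17 were. Both shares were near the 44.5% of all protein-coding genes, so these counts, and those by role below, are not a feature of the pathway. Among the phospholipases 5 of 12 passed, with Pla2g15, a lysosomal enzyme, at 68.3 and 45.7 TPM. Pla2g7 (7.64 and 6.23), which breaks down platelet-activating factor, and Pla2g6 (7.26 and 5.08) were above the 3.17 and 2.23 TPM of Pla2g4a without its short transcript in both libraries. Against the whole of Pla2g4a (7.32 and 2.23 TPM), Pla2g6 was slightly lower in replicate 1. In the alignment-free table Pla2g7 (3.71 and 1.35 TPM) was below the whole of Pla2g4a (7.27 and 1.48), and Pla2g6 (7.34 and 2.16) was above it. Pla2g4b was at 2.54 and 2.27 TPM, and Gm28042 overlaps it by 9614 bases on the same strand. All of its counts were on retained-intron transcripts in both libraries.

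Of 7 terminal synthases 4 passed. Hpgds, the hematopoietic synthase of prostaglandin D2, was the highest of the 51 genes at 203 and 162 TPM, which is 3.02 and 2.47 times the level of Tbxas1, with 43.6% and 47.8% of its counts on retained-intron transcripts. The other synthases of prostaglandin E2 were above Ptges in the gene table: Ptges3 was at 9.79 and 6.84 TPM and Ptges2 at 1.97 and 1.60 TPM. Ptges2 had 67 and 44 counts, with 12.0% and 41.4% of them on retained-intron transcripts. In the alignment-free table Ptges3 (6.46 and 1.92 TPM) stayed above Ptges (1.82 and 0.81). Ptges2 was there at 1.93 and 0.35 TPM, near Ptges in replicate 1 and below it in replicate 2. Ptgis, which makes prostacyclin, was at 0 counts in both.

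Of 9 prostanoid receptors 4 passed. In the gene table Ptger1 (EP1) was the highest of them at 9.05 and 11.3 TPM, above Ptger4 in both libraries. Of its counts, 50.5% and 60.3% were on retained-intron transcripts. In the alignment-free table the order turned: Ptger1 (4.0032 and 1.6468 TPM) was slightly below Ptger4 (4.1504 and 1.6752) in both libraries. The level of Ptger1 is uncertain, since the use of strand is unknown. Ptgir, the prostacyclin receptor, was at 2.47 and 2.22 TPM. The thromboxane receptor Tbxa2r and the prostaglandin D2 receptor Ptgdr were at 0 counts in both.

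Of the 5 genes of prostaglandin transport and breakdown 3 passed: Ptgr2 (11.4 and 7.45 TPM), the exporter Abcc4 (4.89 and 4.11) and Ptgr1 (2.74 and 1.90). On the leukotriene side Ltc4s, the synthase of leukotriene C4, was at 3.08 and 4.44 TPM, with the antisense gene Gm26542 across it at 77.9 and 137 counts. The enzymes that convert leukotriene C4 onward were at 55.8 and 49.7 TPM (Dpep2) and 4.74 and 2.31 TPM (Ggt5). For Dpep2, 61.6% and 59.7% of counts were on retained-intron transcripts. Of 4 leukotriene receptors, Cysltr2 (4.12 and 2.42) and Cysltr1 (3.25 and 2.44), both for cysteinyl leukotrienes, passed, and the leukotriene B4 receptors did not. Of 5 other lipoxygenases 0 passed, with a summed level of 1.08 and 0.10 TPM. Of the 41 genes outside the members, 19 had 10 counts or more in each library. Their median log2 ratio relative to the median gene was 0.12, with 6 below 0 and 0 over 2-fold.

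**Figure D4:**
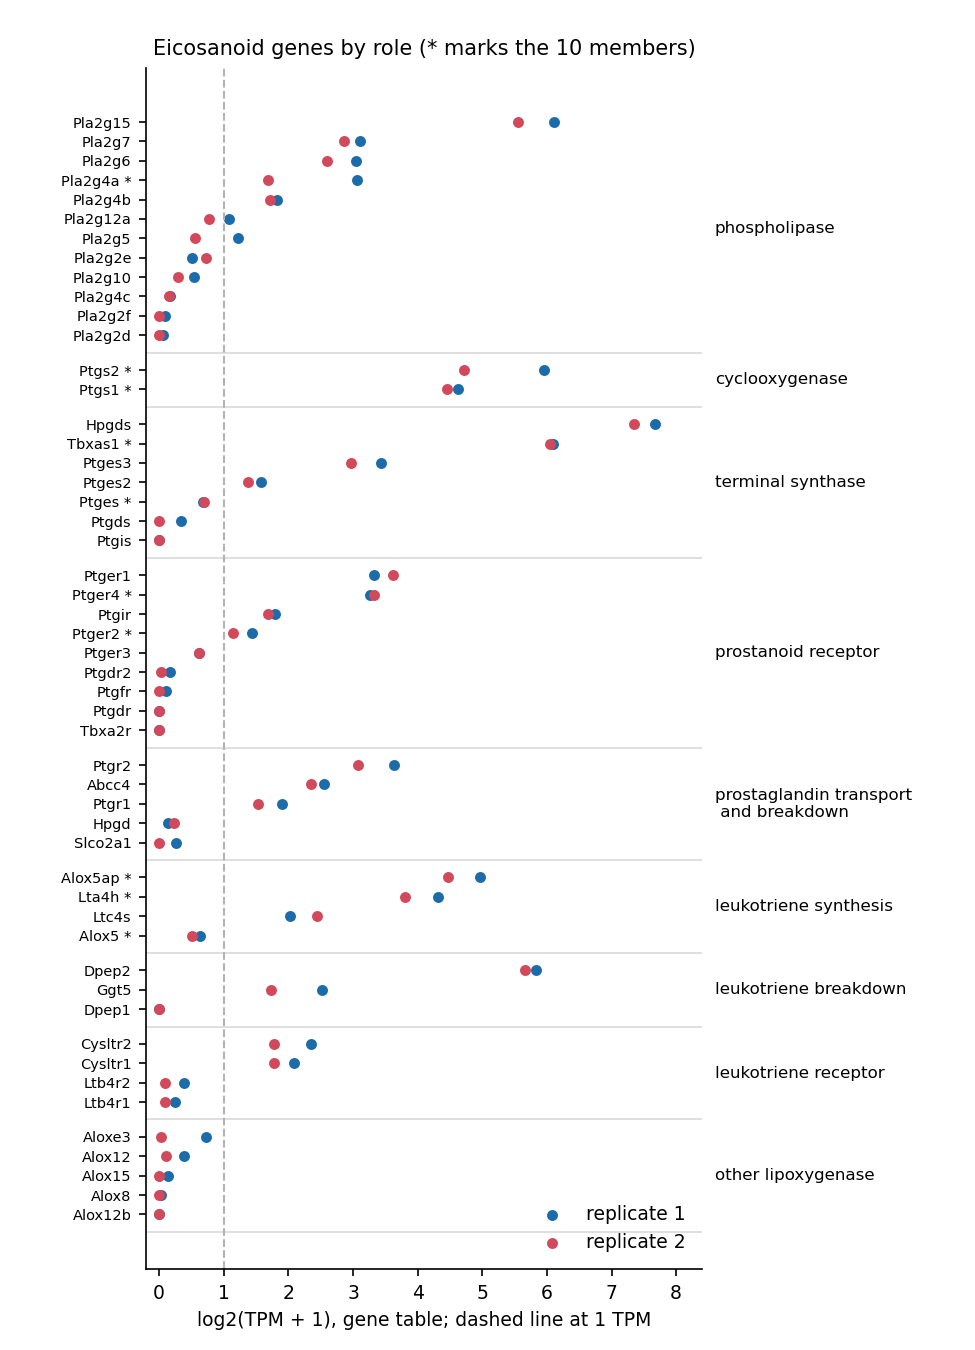
Level of the 51 eicosanoid genes as log2(TPM + 1), grouped by role and sorted by mean TPM, 1 point per library (blue replicate 1, red replicate 2), with the 10 members starred and a dashed line at 1 TPM. Hpgds, Tbxas1, Pla2g15, Dpep2 and Ptgs2 lead, and no lipoxygenase crosses the line in either library.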

How the data were processed

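Per the deposited readme, the authors aligned reads to the transcriptome (assembly mm10, GENCODE M21) and derived expected counts and TPM per gene and per transcript. The percent of a gene's TPM per transcript and the interval bounds of TPM are columns of those deposited tables. Another deposited table, called alignment-free here, gives estimated counts and TPM per transcript, made from reads and an index without alignment. Neither the quantifiers nor the use of strand is named: both are not given in the sources here. Replicates were not pooled.

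Coordinates, transcript types and transcript sequences came from GENCODE M21, and start windows from RefSeq's GRCm38.p6 table. CPM used the total over annotated genes. Ratios between the libraries (replicate 2 over 1) were taken in TPM + 1, over genes with 10 counts or more in each, minus their median. For TMM factors (edgeR 4.0.16) and size factors (DESeq2 1.42.0) the expected counts were rounded to whole numbers, and neither tool was used to test. Other steps used Python 3.11.15, pandas 2.3.3 and scipy 1.17.1. The script that counts genes over 2-fold was tested on simulated data.

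The members and lists were chosen with earlier results of these data known. Named genes are the 10 members, every wider pathway gene at 1 TPM or more in both libraries, genes overlapping these, and the highest 2 of each marker list, some of which are left out. Genes named at 0 counts were chosen after their values were seen. Both libraries form 1 group, so no test was made. Over 15442 genes the chi-square between the libraries was 52.4 per degree of freedom, so they are not copies of 1 library.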

Additional observations from a re-analysis of the deposited data

How the results depend on the processing

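The number of members detected ran from 6 to 10 and the median retained-intron share from 46.6% to 53.0% over all alternatives tried, while as a share of TPM 5 of the 6 shares moved by more than their SD, Ptgs1 from 11.6% to 38.2%. The wider pathway count was 14 at a minimum of 5 TPM and 16 in the alignment-free table, against 25. The median level was 2.49 in the alignment-free table and 4.16 with TPM rescaled without mitochondrial genes and genes under 200 bases, against 3.67. Members over 2-fold numbered 2 without subtracting the median (and with no filter on counts, where the median over genes is 0), 1 with a pseudocount of 0.1 TPM and 1 in the alignment-free table, against 0. The median ratio, 0.19, was -0.23 without subtracting the median and with no filter, 0.0746 with TMM and -0.28 in the alignment-free table. With alternatives chosen after seeing the data it was 0.0425 (CPM minus its median) and -0.0426 (counts on protein-coding transcripts). Each library alone gave 8 members detected, 25 to 27 wider genes and a median level of 3.56 to 3.79. The causes were not tested. Depth limits Ptges and Alox5 most, at 20 to 27 counts. No paired analysis was possible because both libraries belong to 1 group.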
